A study of Mus musculus with 6 samples.

Results

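The genes described are 7 detoxifying oxidases and related enzymes: the flavin-containing monooxygenases *Fmo1*, *Fmo2* and *Fmo4*, the epoxide hydrolase *Ephx1*, the aldehyde oxidase *Aox1*, and the cytochrome P450 genes *Cyp46a1* and *Cyp27b1*. They were chosen by name, as every probe set of the deposited table whose single annotated symbol is 1 of these 7, with no measured value in the rule. This gave 98 of the 58919 probe sets tested and 7 of 5017 named genes, and all 7 had probe sets. Below, all genes means these 5017, and a listed gene is called measured if it has a probe set among those tested. Listed genes without one are absent from the rows used here, and nothing is said of their signal. Signals came from total RNA of mouse brain on 6 biotin-labelled 1-colour whole-transcript arrays, which read each gene with several probe sets. The genotype is APPPS1-FVB for the 3 control arrays and APPPS1-FVBxABCC1 for the other 3, whose titles call them knockout. Both groups therefore carry the APPPS1 transgenes, in which a *Thy1* promoter drives mutant human APP and presenilin in neurons, and neither group is free of the amyloid model. The labels give no age, sex, litter or batch and do not say that arrays come from separate animals, so a p-value measures only the spread between these samples. *Abcc1*, the targeted gene, was not analysed here and gives no check of the genotypes.

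Phase I enzymes add or uncover a reactive group on drugs, dietary compounds and steroids, and phase II enzymes then couple that group to glutathione, glucuronic acid or sulphate. *Abcc1*, the gene targeted in the knockout, encodes an export pump for such conjugates, so phase I and phase II steps on these compounds come before export by it. Flavin-containing monooxygenases sit in the endoplasmic reticulum and oxygenate nitrogen and sulphur atoms with NADPH. *Ephx1* encodes the microsomal hydrolase that opens epoxides, *Aox1* a molybdenum enzyme that oxidises aldehydes and nitrogen heterocycles, *Cyp46a1* the neuronal hydroxylase that turns cholesterol into a form that can leave the brain, and *Cyp27b1* the mitochondrial hydroxylase that makes active vitamin D.

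All values are log2 signals as deposited, and a difference is always knockout minus control on that scale. Array medians of the tested probe sets spanned 0.05 and pairs of arrays correlated at 0.984 to 0.990. The features numbered ahead of any named probe set, taken as controls of the array, had medians of 4.09 to 4.16 on control arrays and 4.20 to 4.29 on knockout arrays, so that dim signal was brighter in the knockouts. As a check of the tissue, the neuronal markers *Syt1*, *Camk2b*, *Map2* and *Nsg2* had control means of 12.4, 11.9, 11.9 and 11.7, and 4 of 10 such markers were measured. The lists of glial, vascular and other markers are given with *Fmo2*, the gene with the largest difference.

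No member probe set passed the threshold, a limma adjusted p below 0.05 over all tested probe sets. The count was 0 of 98, beside 3 of 58919 (0.00509%) in the whole table, and the adjusted p of the 98 ran from 0.522 to 0.994. Taking raw p below 0.05, 7 member probe sets were lower and 2 higher. The lower ones were 7.14% of the 98 against 2.94% of all probe sets, and 6 of these 7 belong to *Fmo2*. Without *Fmo2* the share was 1 of 88, or 1.14%. All 3 knockout values lay below all 3 controls at 11 member probe sets (11.2%, against 5.52% of all) and above them at 3 (against 7.94% of all). Without *Fmo2* the 11 became 5 of 88, or 5.68%, against that background of 5.52%. The median difference was -0.06 over the 98 probe sets, -0.04 without *Fmo2* and 0.01 over all tested probe sets.

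**Figure D1:**
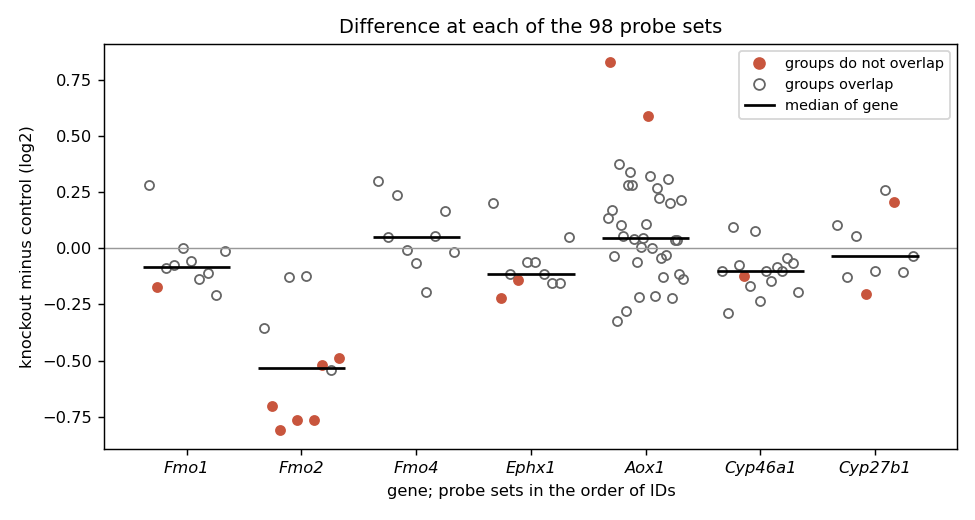
Knockout minus control log2 difference (y axis) at each of the 98 probe sets of the 7 genes (x axis, probe sets in the order of their IDs). Filled points are probe sets whose 3 knockout values do not overlap the 3 controls and bars are gene medians. The 10 points of *Fmo2* all lie below 0, and each other gene has points on both sides of 0.

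*Fmo2* was lower in the knockout arrays at every one of its 10 probe sets, by 0.12 to 0.81. The number was 9 of 10 without control 3, knockout 1 or knockout 2, and 10 without each other array. *Fmo2* encodes the monooxygenase that is best known from lung. The mean over its probe sets was 5.65, 5.90 and 5.58 on control arrays 1, 2 and 3 and 5.10, 5.29 and 5.17 on knockout arrays 1, 2 and 3. All knockout arrays lay below all controls by this mean, and control 2 was the highest. The group means were 5.71 ± 0.17 (SD, n = 3) and 5.19 ± 0.10 (SD, n = 3), a difference of -0.52 (SE 0.09) or 1.43-fold lower, with a 95% interval from -0.73 to -0.31.

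By this gene mean, *Fmo2* had a limma adjusted p of 0.215 over 5017 genes and so did not pass. The main planned value was that at the brightest probe set (limma adjusted p = 0.581), and the gene mean was an alternative to it. The number of genes that passed by their means was 0 (0%), with 706 at a raw p below 0.05, of which 307 (6.12% of all genes) were lower, *Fmo2* among them. By raw p it ranked 9 of 5017, and 9 genes had a mean difference at or below its own. A two-sided exact permutation test gave p = 0.1, which 3 against 3 arrays cannot go below. Genes whose knockout means lay below all control means numbered 445, or 8.87%. Of 2663 genes with at least 8 probe sets, 60 (2.25%) had all of them lower, and *Fmo2* had the lowest mean difference of these 60. That class was not among the planned results and is built on the trait seen in *Fmo2*, so the rank is only a description. Probe sets of 1 gene are read from the same RNA and are not replicates.

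At its brightest probe set, 10359590, *Fmo2* had 6.45, 7.03 and 6.60 in controls and 6.22, 6.17 and 6.13 in knockouts. The groups did not overlap, and the difference was -0.52 (SE 0.16, limma adjusted p = 0.581). The probe set with the smallest raw p, 10359589, had 6.60, 6.99 and 6.78 in controls and 5.89, 6.24 and 5.95 in knockouts. The difference there was -0.76 (SE 0.14, limma adjusted p = 0.522), again without overlap. The largest difference was at 10359585, with 5.60, 6.60 and 5.62 in controls and 4.77, 5.45 and 5.17 in knockouts. That was -0.81 (SE 0.32), where control 2 stands well above the other controls.

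Groups were separate at 6 of the 10 *Fmo2* probe sets. The other 4 overlapped, among them 10359586 at -0.13 and 10359588 at -0.12, which have spreads within the knockouts of 0.44 and 0.45 (SD, n = 3). Over the 10 probe sets the highest array was control 2 at 6, control 1 at 2, and knockout 2 and knockout 3 at 1 each. The lowest array was always a knockout, with knockout 1 lowest at 4 and knockout 2 and knockout 3 at 3 each. Mean signals of the 10 probe sets ran from 2.52 to 6.43, all under the array medians of 7.04 to 7.09. Probe set 10359592 is dim, between 1.96 and 2.89, below the control-feature median on all 6 arrays. Without control 2 the gene mean difference was -0.42, and it stayed negative without each other array.

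**Figure D2:**
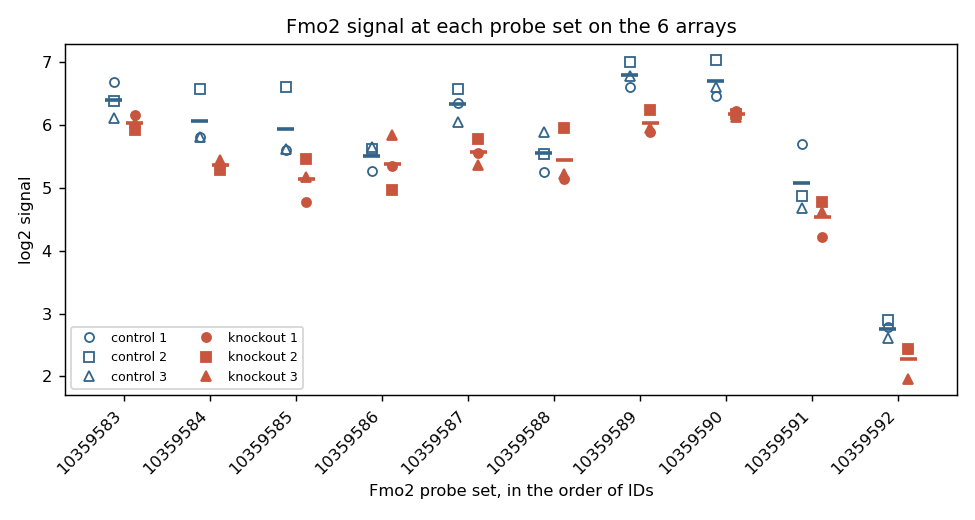
log2 signal (y axis) of *Fmo2* at its 10 probe sets (x axis, by ID) on each of the 6 arrays, open symbols for controls and filled ones for knockouts, with short bars at group means. The knockout mean is below the control mean at all 10, and the points overlap at 10359583, 10359586, 10359588 and 10359591.

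In whole brain RNA, fewer cells of a type and less RNA per cell cannot be told apart, so marker genes are given beside *Fmo2*. Of 11 markers fixed for meningeal and perivascular fibroblasts, 7 were measured; 6 were lower at the brightest probe set (median -0.03) and 5 by the mean of probe sets (median -0.13). The log2 of their summed linear signal was 12.415 to 12.526 in controls and 12.382 to 12.409 in knockouts. These ranges did not overlap, but 12.415 and 12.409 lie close together. The sum is set mostly by its brightest genes, *Col5a2* and *Dcn*. By gene mean the 7 ran from -0.30 for *Col1a1*, fibrillar collagen, which was at -0.03 at its brightest probe set, to 0.19 for *Aspn*, a small matrix proteoglycan. Of 12 microglial markers 3 were measured, 2 of them lower at the brightest probe set, and all 3 lower by the mean, with a summed signal of 9.94 to 10.12 in controls and 9.29 to 10.04 in knockouts. *Cd68*, a lysosomal protein of phagocytes, was lower at 8 of 8 probe sets, with 9.03, 8.71 and 8.98 in controls and 8.63, 7.76 and 8.69 in knockouts at the brightest (difference -0.55, SE 0.26; by the mean -0.41, SE 0.20). Of 12 astrocyte markers 7 were measured, 3 of them lower at the brightest probe set and 4 by the mean, with 14.23 to 14.31 in controls and 14.20 to 14.24 in knockouts. *Gfap*, the astrocyte filament protein, was lower at 12 of 12 probe sets, with 11.31, 11.15 and 11.74 in controls and 11.30, 10.54 and 11.30 in knockouts at the brightest (difference -0.35, SE 0.26; by the mean -0.48, SE 0.25). *Cd68* and *Gfap* were lowest in knockout 2 at the brightest probe set, and both were picked from their lists. At the brightest probe set the other microglial markers, *Fcgr3* and *Fcer1g*, were at -0.27 and 0.00. Of the other astrocyte markers, *S100b* and *Gja1* were at -0.21 and -0.16, and *Glul*, *Sox9*, *Atp1b2* and *Aldoc* at 0.06, 0.04, 0.03 and 0.00. The part of these cell types in the *Fmo2* difference was not tested.

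The other marker lists had few measured genes. At the brightest probe set, neurons had 2 of 4 lower, oligodendrocytes 1 of 1, endothelial cells 1 of 2, choroid plexus 1 of 4, ependyma 1 of 1, red cells 0 of 1 and liver 1 of 2. The red cell marker *Slc4a1*, the anion exchanger, was at 0.24 (SE 0.25) at its brightest probe set but at -0.36 (SE 0.07, limma adjusted p = 0.215) by its mean, with 16 of 19 probe sets lower. No gene of any marker list passed the threshold. Over all 5017 genes 2843 were lower at the brightest probe set, or 56.7%.

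The promoter stretch of *Fmo2* is shown because this gene alone among the 7 had all probe sets on one side, and that of *Cyp46a1* because it is the brain sterol hydroxylase of the set. Both are from RefSeq on build GRCm38.p6, 5′ to 3′, and end just before the annotated gene. Windows around a RefSeq start were found for 6 of the 7 genes. The only window of *Fmo4* lies wholly inside the annotated gene and does not cover its outer start. For *Fmo2* the stretch is chr1:162898759-162899008 on the minus strand, and for *Cyp46a1* it is chr12:108334066-108334267 on the plus strand. Capitals mark matches on either strand to the TATA box TATAAA, the GC box GGGCGG, the antioxidant response element core TGACNNNGC or the xenobiotic response element core GCGTG.
Fmo2: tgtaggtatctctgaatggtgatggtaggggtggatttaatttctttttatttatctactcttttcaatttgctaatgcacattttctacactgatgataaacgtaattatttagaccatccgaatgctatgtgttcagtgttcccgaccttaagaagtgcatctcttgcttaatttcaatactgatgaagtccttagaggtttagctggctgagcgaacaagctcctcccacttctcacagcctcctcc
Cyp46a1: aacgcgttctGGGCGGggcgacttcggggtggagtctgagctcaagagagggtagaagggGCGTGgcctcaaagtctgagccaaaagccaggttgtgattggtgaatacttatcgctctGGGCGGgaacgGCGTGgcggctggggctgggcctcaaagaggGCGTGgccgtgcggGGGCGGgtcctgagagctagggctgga

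The *Fmo2* stretch of 250 bases holds 0 matches to the 4 motifs, and so does the whole window of 300 bases around that start. A further RefSeq start inside the gene has a window with a GC share of 47.7% and also 0 matches. The first window has a GC share of 41.3%, against a median of 52.7% over 32851 RefSeq promoter windows. The *Cyp46a1* window has 70.3%, with 6 GC boxes and 4 xenobiotic cores in 300 bases, of which 3 and 3 are in the part shown. Over all windows of this length 13.6% hold the TATA box, 35.7% the GC box, 12.4% the antioxidant core and 32.4% the xenobiotic core. The windows of *Ephx1*, *Aox1* and *Cyp27b1* have a GC share of 54.3% each. *Ephx1* holds 2 GC boxes and 1 TATA match, *Aox1* 2 GC boxes and 1 xenobiotic core, and *Cyp27b1* and *Fmo4* none of the 4. A match describes letters in a window and says nothing of binding.

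*Fmo1* and *Fmo4*, which precede *Fmo2* in the order of probe set IDs on chromosome 1, had smaller differences, of both signs. *Fmo1* encodes the monooxygenase that dominates in mouse kidney. The mean over its 10 probe sets was 7.10, 6.90 and 7.08 in controls and 6.99, 6.99 and 6.93 in knockouts, and the groups overlapped. The difference was -0.06 (SE 0.06, 95% interval -0.21 to 0.09, limma adjusted p = 0.719). At its brightest probe set, 10359578, *Fmo1* had 8.87, 8.69 and 8.92 in controls and 8.65, 8.77 and 8.65 in knockouts, a difference of -0.14 (SE 0.10). Only at 10359573 did its groups separate, with 8.28, 8.25 and 8.43 against 8.12, 8.13 and 8.19, a difference of -0.17 (SE 0.08). Its extremes were 10359580, at 8.02, 8.01 and 8.51 against 7.86, 8.07 and 7.98 (difference -0.21, SE 0.16), and 10359572, at 2.61, 2.40 and 2.18 against 3.04, 2.87 and 2.12 (difference 0.28, SE 0.26). The groups overlapped at both. Of the 10 probe sets, 8 were lower, and 2, 10359572 among them, lay below the control-feature median on all arrays.

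*Fmo4*, a monooxygenase of little-known substrates, had a mean over 9 probe sets of 4.31, 4.37 and 4.26 in controls and 4.47, 4.24 and 4.40 in knockouts. The groups overlapped, and the difference was 0.06 (SE 0.07, 95% interval -0.10 to 0.22, limma adjusted p = 0.736). At its brightest probe set, 10359570, it had 6.42, 6.58 and 6.14 in controls and 6.29, 6.51 and 6.29 in knockouts, a difference of -0.02 (SE 0.14), so the sign depends on how the gene is read. Its smallest raw p and highest difference were at 10359562, with 5.60, 5.17 and 5.38 in controls and 5.98, 5.41 and 5.66 in knockouts (0.30, SE 0.18), and its lowest was at 10359567, with 6.14, 6.12 and 5.75 against 5.91, 5.74 and 5.78 (-0.19, SE 0.13). The groups overlapped at all 9 probe sets. Of these 4 were lower and 5 higher, and 4 lay below the control-feature median on all arrays.

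The levels of the monooxygenases were also set against each other within each array, on the scale of gene means, where only the change of a gap is read. The gene mean of *Fmo2* minus that of *Fmo1* was -1.45, -0.99 and -1.51 in controls and -1.88, -1.69 and -1.76 in knockouts, without overlap. The group difference of this gap was -0.46. The gap between *Fmo2* and *Fmo4* was 1.34, 1.54 and 1.32 in controls and 0.63, 1.05 and 0.77 in knockouts, a group difference of -0.58. Both have an exact two-sided permutation p of 0.1, the lowest possible here, and the gap between *Fmo1* and *Fmo4* has an exact permutation p of 0.3 with a group difference of -0.12. These are 3 comparisons outside the planned results, and none can reach 0.05.

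The genes on either side of the cluster had values of both signs. *Prrc2c*, a large RNA-associated protein gene that precedes *Fmo4* in ID order, was higher at all 34 of its probe sets, by 0.04 to 0.45, with a gene mean difference of 0.25 (SE 0.07, limma adjusted p = 0.231). Of genes with at least 8 probe sets, 89 (3.34%) had all of them higher. *Mroh9* and *Prrx1*, which follow *Fmo2*, had gene mean differences of -0.09 (SE 0.05) and -0.06 (SE 0.07), with 14 of 20 and 8 of 10 probe sets lower. *Mettl11b*, a methyltransferase gene that comes next, was lower at all 3 of its probe sets, with a gene mean difference of -0.15 (SE 0.08, range -0.24 to -0.02). At its brightest probe set *Mroh9* was at 0.29 (SE 0.15), against the sign of its mean.

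**Figure D3:**
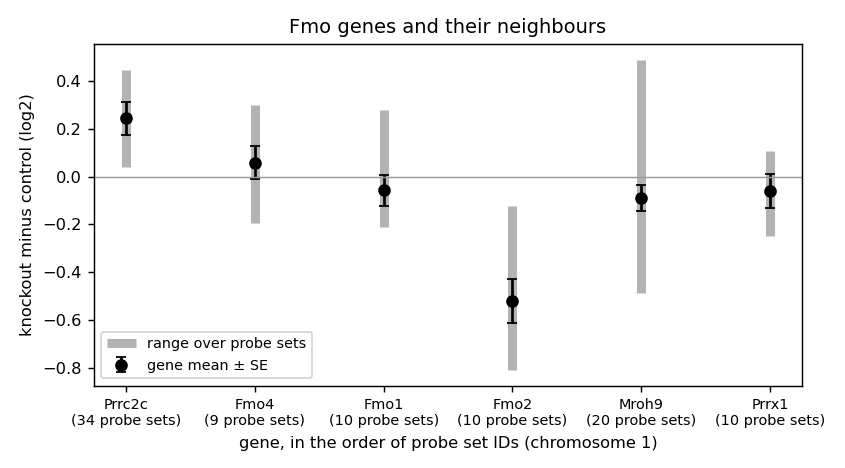
Knockout minus control log2 difference (y axis) for the 3 *Fmo* genes and their neighbours in ID order on chromosome 1 (x axis); grey bars span the probe sets of a gene and points are gene means with their SE. The range of *Prrc2c* lies above 0 and that of *Fmo2* below 0, while those of the other 4 genes drawn cross it.

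*Ephx1* was slightly lower on most probe sets, within the spread of the arrays. The mean over its 10 probe sets was 7.25, 7.35 and 7.33 in controls and 7.22, 7.31 and 7.17 in knockouts. The groups overlapped, with a difference of -0.08 (SE 0.06, 95% interval -0.21 to 0.05, limma adjusted p = 0.563). At the brightest probe set, 10360688, the values were 9.27, 9.43 and 9.32 in controls and 9.20, 9.17 and 9.22 in knockouts. There all knockouts lay below all controls, by a mean of 0.14 (difference -0.14, SE 0.08, limma adjusted p = 0.702).

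The smallest raw p of *Ephx1* was at 10360686, with 8.60, 8.76 and 8.81 in controls and 8.45, 8.55 and 8.51 in knockouts, a difference of -0.22 (SE 0.09, limma adjusted p = 0.646). Of its 10 probe sets 8 were lower, and the 2 higher ones, 10360685 and 10360694, are its dimmest. At 10360685 the controls had 4.80, 4.33 and 4.94 and the knockouts 4.91, 5.19 and 4.58, a difference of 0.20 (SE 0.22) with overlap. *Ephx1* lies between *Mixl1* and *Nvl* in ID order. *Nvl*, which encodes an ATPase of ribosome assembly, was higher at all 24 probe sets with a gene mean difference of 0.53 (SE 0.08), and *Mixl1*, a homeobox gene, was lower at all 4 with -0.28 (SE 0.05); both have a limma adjusted p of 0.215. The value of *Ephx1* lay between those of its neighbours.

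*Aox1* was read by 35 probe sets, and 23 were higher and 12 lower. Their mean was 5.97, 6.05 and 5.96 in controls and 6.17, 6.04 and 6.04 in knockouts, and the groups overlapped by the value of control 2. The difference was 0.09 (SE 0.06, 95% interval -0.04 to 0.22, limma adjusted p = 0.496). At the brightest probe set, 10346395, *Aox1* had 7.94, 8.05 and 8.17 in controls and 7.97, 8.15 and 8.05 in knockouts, a difference of 0.00 (SE 0.10, 95% interval -0.23 to 0.24).

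All 3 knockout values lay above all 3 controls at 2 of the 35 *Aox1* probe sets, a share no larger than the 7.94% of all probe sets. At 10346393 the controls had 4.87, 4.96 and 4.94 and the knockouts 5.70, 5.35 and 5.48, a difference of 0.59 (SE 0.11, limma adjusted p = 0.522). At 10346376 the controls had 4.67, 4.20 and 5.05 and the knockouts 5.63, 5.60 and 5.17, a difference of 0.83 (SE 0.24, limma adjusted p = 0.574). The groups were separate at both, and neither passed the threshold. The other 33 probe sets had a median difference of 0.04, from -0.32 at 10346379 to 0.37 at 10346380, and all 33 overlapped. At 10346379, a dim one, the controls had 2.51, 3.30 and 3.12 and the knockouts 2.76, 2.59 and 2.61. The adjacent aldehyde oxidase genes *Aox3*, *Aox4* and *Aox2* had gene mean differences of -0.03 (SE 0.14), -0.07 (SE 0.08) and -0.04 (SE 0.07).

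*Cyp46a1*, the cholesterol hydroxylase of neurons, had a small difference that did not pass. The mean over its 15 probe sets was 9.999, 9.855 and 9.963 in controls and 9.907, 9.815 and 9.785 in knockouts, and the groups overlapped. The difference was -0.10 (SE 0.06, 95% interval -0.24 to 0.03, limma adjusted p = 0.460). Of the 15 probe sets 13 were lower, yet the brightest, 10398227, was higher, with 11.28, 11.13 and 11.24 in controls and 11.28, 11.34 and 11.31 in knockouts. That difference was 0.09 (SE 0.08, 95% interval -0.10 to 0.29), so the direction of *Cyp46a1* depends on the probe set.

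The smallest raw p of *Cyp46a1* was at 10398232, with 9.88, 9.56 and 9.83 in controls and 9.75, 9.41 and 9.40 in knockouts. The groups overlapped there, and the difference was -0.24 (SE 0.14, limma adjusted p = 0.715). Its largest difference, -0.29 (SE 0.25) at 10398226, had 1 low array, knockout 2: the controls had 10.64, 10.59 and 10.72, and the knockouts 10.72, 9.76 and 10.60. Knockout 2 was the lowest array at only 4 of the 15 probe sets. The groups were separate at 1 probe set, 10398229, where 10.81, 10.66 and 10.63 in controls stood against 10.58, 10.57 and 10.58 in knockouts. None of its probe sets lay below the control-feature median on all arrays.

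*Cyp27b1*, the vitamin D activating hydroxylase, gave little signal at its 9 probe sets, with 3 of them below the control-feature median on all arrays. Their mean was 4.31, 4.22 and 4.16 in controls and 4.25, 4.20 and 4.26 in knockouts. The groups overlapped, and the difference was 0.01 (SE 0.05, 95% interval -0.12 to 0.13, limma adjusted p = 0.973). At the brightest probe set, 10366805, it had 5.66, 5.85 and 5.96 in controls and 5.76, 5.50 and 5.83 in knockouts, a difference of -0.13 (SE 0.13). Its smallest raw p and lowest difference were at 10366808, a dim probe set, with 3.30, 3.21 and 3.05 in controls and 2.87, 3.04 and 3.04 in knockouts (-0.20, SE 0.10). Its highest difference was at 10366810, with 3.88, 4.33 and 3.77 against 4.21, 4.28 and 4.27 (0.26, SE 0.16), where the groups overlapped. Probe sets with non-overlapping groups went both ways, 10366808 lower and 10366811 higher, against 5.52% and 7.94% of all probe sets. Both lay below the control-feature median on all arrays.

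**Figure D4:**
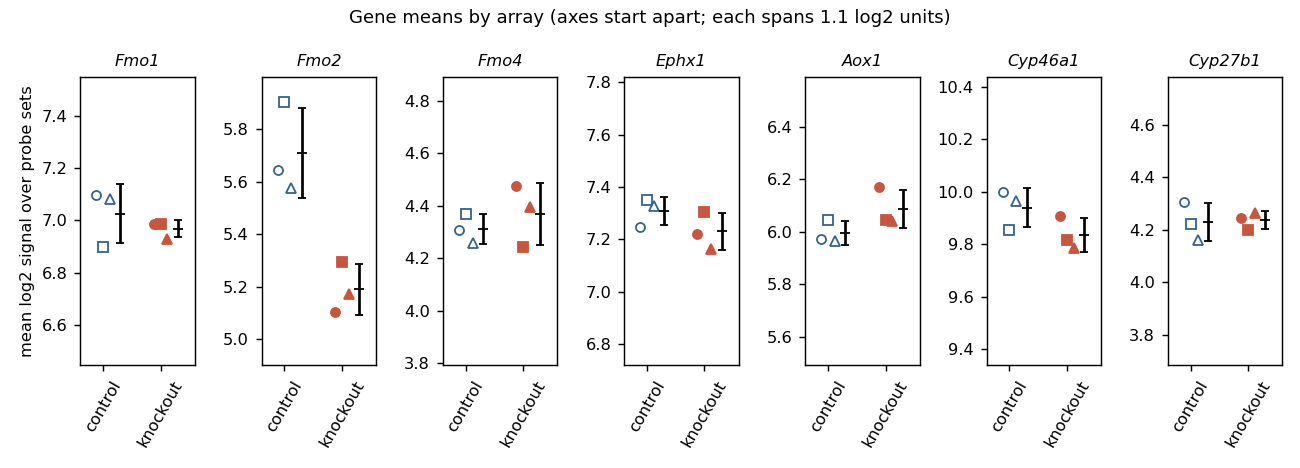
Mean log2 signal over all probe sets of each gene (y axis, drawn over an equal span of 1.1 log2 units from a different start per gene) for the 3 control and 3 knockout arrays; black marks are group means with their SD. The groups are apart for *Fmo2* and overlap for the other 6 genes.

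Over the 6 arrays, the gene whose brightest probe set followed that of *Fmo2* most closely was *Odc1*, of polyamine synthesis, with a Pearson correlation of 0.99, then *Cdc34*, a ubiquitin-conjugating enzyme, with 0.98. *Cdc34* (0.99) and *Odc1* (0.98) were also the closest for *Ephx1*. The closest were *Tmed4* (0.97) and *Pomt2* (0.97) for *Fmo1*, *Chmp6* (0.97) and *Rgs6* (0.96) for *Fmo4*, and *Pex19* (0.96) and *Gtf3c3* (0.95) for *Aox1*. For *Cyp46a1* they were *Rffl* (0.99) and *Desi2* (0.97), and for *Cyp27b1* they were *Cavin1* (0.99) and *Btbd17* (0.99). These come from 2507 genes of above-median signal over only 6 arrays that share 2 groups, and they are a description.

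Other genes of the same pathways were read from lists, and none passed the threshold. Of 75 other phase I enzymes 30 were measured; 19 were lower and 11 higher at the brightest probe set, with 0 past the threshold in each direction and a median of -0.04, beside -0.02 over all genes. The smallest raw p belonged to *Aldh3a1*, an aldehyde dehydrogenase, at 6.62, 6.37 and 6.68 on control arrays against 6.21, 6.36 and 6.15 on knockout arrays, which is -0.32 (SE 0.115). *Suox*, the sulphite oxidase gene that like *Aox1* needs the molybdenum cofactor, differed by -0.26 (SE 0.10), and *Akr1c13*, an aldo-keto reductase, by -0.28 (SE 0.11). Their limma adjusted p was 0.621, 0.621 and 0.638. The other measured monooxygenase, *Fmo9*, differed by -0.08 (SE 0.14) at a control mean of 4.98.

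Of 28 phase II conjugation genes 14 were measured; 11 were lower and 3 higher, with 0 past the threshold and a median of -0.13. *Tpmt*, a thiol methyltransferase, differed by -0.24 (SE 0.09, limma adjusted p = 0.621), and the glutathione transferases *Mgst3* and *Gstt1* by -0.16 (SE 0.08) and -0.17 (SE 0.10). The log2 of summed linear signal was 11.57 to 11.67 in controls and 11.43 to 11.51 in knockouts for phase II, and 13.54 to 13.60 against 13.48 to 13.51 for the other phase I enzymes. Neither pair of ranges overlapped, and each sum is set mostly by its brightest genes. No such sum was made over all genes, of which 56.7% were lower at the brightest probe set, so the ranges are not read as a pathway result. By the mean of probe sets the medians were -0.05 for both lists and -0.00 over all genes.

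Of 15 xenobiotic receptors and regulators 4 were measured, 1 lower and 3 higher, with 0 past the threshold and a median of 0.06. *Mafg*, a small partner of the antioxidant response factors, differed by 0.13 (SE 0.07), *Ahr*, the aryl hydrocarbon receptor, by -0.16 (SE 0.10) and *Rxrg*, a retinoid X receptor, by 0.07 (SE 0.09). By the mean of probe sets *Ahr* was at 0.06, so its sign depends on the probe sets read.

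Around *Cyp46a1*, 8 of 38 genes of cholesterol synthesis and sterol turnover were measured, 7 lower and 1 higher, with 0 past the threshold and a median of -0.14. *Hsd17b7* and *Idi1*, of cholesterol synthesis, differed by -0.22 (SE 0.11) and -0.32 (SE 0.15), and *Npc2*, the lysosomal cholesterol carrier, by -0.18 (SE 0.11). By the mean of probe sets 7 were lower too, with a median of -0.08, beside 56.7% of all genes lower at the brightest probe set and 51.4% by the mean. Their summed signal was 12.53 to 12.62 in controls and 12.40 to 12.48 in knockouts. The limma adjusted p of these 3 genes was 0.672, 0.674 and 0.722. Around *Cyp27b1*, 2 of 11 genes of vitamin D handling were measured and 0 passed, *Cyp27a1*, a sterol hydroxylase, at -0.17 (SE 0.12) and *Rxrg* as above. Of 9 mitochondrial and steroid P450 partners 0 were measured.

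**Figure D5:**
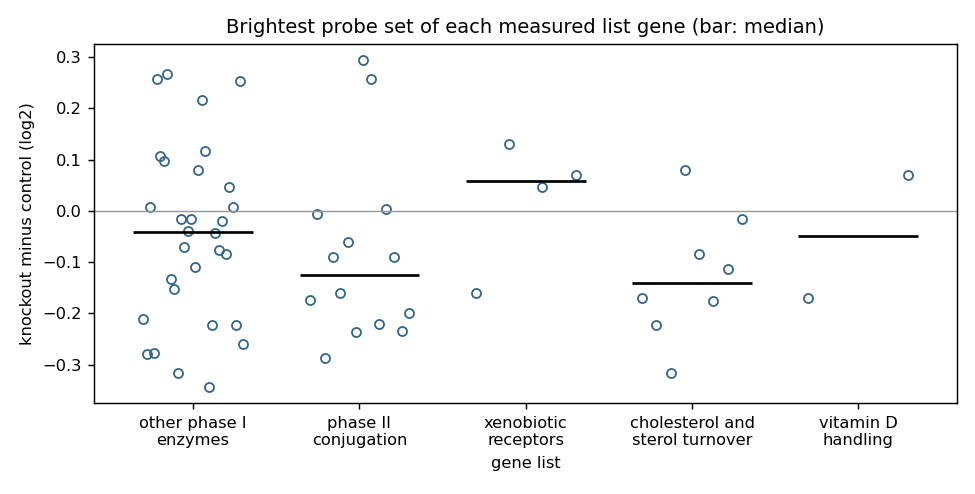
Knockout minus control log2 difference (y axis) at the brightest probe set of each measured gene of 5 pathway lists (x axis), with bars at list medians. Points range from -0.34 (*Cyb5r1*) to 0.29 (*Ugt1a1*) around medians from -0.14 to 0.06, and none passed the threshold.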

How the data were processed

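The series was measured on 1-colour arrays, and the deposited table gives log2 signals per probe set; the authors used MAS5, per the submitters' processing notes, with no version, and how arrays were scaled, and the genome build, are not given in the sources used here. The log2 scale was read from the values, which run from 1.69 to 14.41. Of 65535 features, 6616 numbered ahead of any named probe set were left out as array controls. Of the 58919 tested, 53644 had 1 symbol, 877 several and 4398 none in the platform's annotation; old symbols were updated through RefSeq synonyms. No further normalization was applied.

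Knockout minus control was fitted with limma 3.58.1 in R 4.3.3 (lmFit, eBayes) by a two-sided test, with p-values adjusted by Benjamini-Hochberg across the tested probe sets, or over all 5017 genes for means of probe sets. The brightest probe set of a gene has the highest mean signal over 6 arrays. Its difference was the main planned value of a gene, and the mean over probe sets was an alternative to it. The number of arrays limits precision. The fit was tested on simulated data.

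Members and lists were chosen with earlier results of these data known. Every member was named, with its brightest probe set, that of the smallest raw p and those of the largest difference in each direction; each list gave its 3 genes of smallest raw p, and each member its 2 most correlated genes; the 3 nearest genes in ID order were named where a result turned on them. *Fmo9*, *Cyb5r1*, *Ugt1a1* and the glial, fibroblast and red cell markers named with values, and separate-group probe sets outside this rule, were picked after their values were seen.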

Additional observations from a re-analysis of the deposited data

How the results depend on the processing

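No alternative put a member probe set past the threshold: the count was 0 with every setting run. Over all probe sets the count, 3, became 7 at an adjusted p below 0.1, 0 by gene means, 6 after quantile normalization, 7 after median centring, 19 when the dimmest probe sets were dropped, 21 under variance trend and robust moderation, 7 under array weights, and 0 to 4 without 1 array (0 without any control, knockout 1 or knockout 3, and 4 without knockout 2). The cause was not tested. Whether the numbers in the titles pair the arrays is not stated. Deviations from group means correlated at 0.04, -0.07 and -0.10 between same-numbered arrays and at -0.08 to 0.14 between the others. Within a group of 3 these deviations sum to 0, so the correlations cannot settle the pairing. With the replicate block the count over all probe sets was 0, and the *Fmo2* mean difference was -0.52.

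*Fmo2* was lower in all alternatives run, from -0.64 to -0.35 at its brightest probe set and from -0.60 to -0.42 by its mean, where adjusted p ran from 0.0749 (variance trend and robust moderation) to 0.503. The -0.60 came with the dimmest probe sets dropped, where only 4 *Fmo2* probe sets were left, all 4 lower. Alternatives on gene means were chosen after seeing the data. Signs turned in 13 of 97 alternatives at brightest probe sets and 5 of 83 on gene means, all of genes that were not called. At the brightest probe set *Fmo4* (-0.02) became 0.059 by its mean and 0.05 by the median over probe sets, and ran from -0.14 to 0.083 without 1 array. *Aox1* (0.00) became -0.029 with quantile normalization and -0.017 with median centring, and ran from -0.053 to 0.062 without 1 array. *Cyp46a1* became -0.10 by both its mean and its median, and *Cyp27b1* 0.0059 by its mean. On gene means *Fmo4* became -0.11 when the dimmest probe sets were dropped. *Cyp27b1* became -0.014 with median centring and -0.017 with array weights, and ran from -0.029 to 0.044 without 1 array.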
